A study of Bos taurus with 6 samples.

Results

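RAB GTPases were examined in bovine blastocysts as 58 genes of the 36075 genes listed, chosen by a symbol made of RAB, a number and at most 1 letter and 1 further digit, which leaves out RAB-like genes and RAB effectors. MT-treated blastocysts came from oocytes matured in vitro for 22 h with melatonin (MT) at 1e-07 mol/L, and control blastocysts from oocytes matured without it. Both groups came from slaughterhouse ovaries of cattle, shared in vitro fertilization and culture, and held 3 libraries each, every library made from a pool of 3 blastocysts. The concentration, the time and the pool size were taken from the study's methods, since the labels state no more of the treatment than the group, and MT was present during maturation, not during culture of the embryo. The study's methods name an amplification protocol for few cells, whereas the labels name a kit for total RNA, so the chemistry behind the values is uncertain. Levels are TPM values, read numbers scaled for both gene length and library total, so levels of different RAB genes can be set side by side.

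RAB proteins are small GTPases that mark the membranes of the cell. Exchange factors load them with GTP, which lets them recruit effectors for budding, transport, tethering or fusion of vesicles, and GTPase-activating proteins return them to the GDP state, in which GDI proteins keep them soluble. They hold to membranes by lipids that geranylgeranyl transferase adds with the help of an escort protein. In an early embryo, RAB11 and RAB25 recycling endosomes supply the apical membrane of the trophectoderm, the outer epithelium that pumps fluid into the blastocyst cavity.

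The 2 groups stood far apart over the whole table. Between 8854 and 8953 genes were above 0 TPM in the control pools and between 14372 and 14408 in the MT-treated pools. The epithelial keratin genes KRT8 and KRT18, listed here among trophectoderm markers, were high in every library, from 6756 to 8828 TPM and from 2726 to 3694 TPM. The trophectoderm marker CDX2 and the inner cell mass markers NANOG and LIN28A were listed at 0 in every control pool. They lay between 8.23 and 17.2 TPM over the MT-treated pools, and POU5F1 lay between 188 and 194 TPM throughout. Of 11 trophectoderm markers, 8 were higher in every MT-treated than in every control pool and 3, KRT8, TFAP2A and ELF3, were lower. Of 8 inner cell mass markers 4 were higher and 1, SPIC, was lower. Summed marker levels were 394 to 396 TPM in control and 394 to 396 TPM in MT-treated pools for the inner cell mass (5 and 7 of 8 genes above 0), 11663 to 12008 and 10911 to 11270 TPM for the trophectoderm (10 and 11 of 11, with nearly all of the sum in KRT8 and KRT18), and 0.20 to 0.44 and 54.4 to 58.5 TPM for the hypoblast (1 and 4 of 6). They were 17.2 to 19.2 and 15.1 to 17.1 TPM for cumulus and granulosa cells (1 and 3 of 9), 45.6 to 49.3 and 21.3 to 23.6 TPM for maternal oocyte transcripts (1 and 3 of 10), and 59.6 to 65.0 and 0 TPM for spermatozoa (1 and 0 of 4 symbols). GATA4, FOXA2, FGF4, ZP2, ZP3 and GDF9 were listed at 0 in all 6 libraries. The part of these differences in the RAB results was not tested, and in such pools fewer cells of a type cannot be told apart from less RNA per cell.

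Of the 58 RAB genes, 47 were above 0 TPM in at least 1 library and 45 reached the level for testing, a TPM of 1 or more in 3 or more libraries. The 3 control pools held 28, 28 and 29 RAB genes above 0 and the MT-treated pools 47 each (exact permutation test, two-sided, p = 0.1, the smallest p that 3 libraries against 3 allow). Over all genes with a symbol, 33.8% were above 0 in control and 53.5% in MT-treated pools on average. RAB3A, RAB9B, RAB19, RAB26, RAB33A, RAB36, RAB37, RAB38, RAB40B, RAB42 and RAB43 were listed at 0 in all 6 libraries. RAB6B, with 0.42, 0.43 and 0.29 TPM, and RAB33B, with 0.35, 0.57 and 0.58 TPM, were above 0 in the MT-treated pools alone and were not tested.

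In MT-treated blastocysts 25 of the 45 tested RAB genes were higher and 18 lower than in control at an adjusted p under 0.05 by limma, which fits all genes together. Over all 11953 genes tested, 61.6% were higher and 34.1% lower, 95.7% in all, so a call at this threshold does not set a RAB gene apart. When a 2-fold difference in TPM + 1 was also required, 21 RAB genes (46.7%) were higher and 8 (17.8%) lower, against 51% and 19.6% (70.6% together) of all genes tested. The MT-treated values lay outside the control values for 43 of the 45 RAB genes and for 96.1% of all genes. The shares among RAB genes were thus close to those of the table. The median difference was 0.53 on the log2 scale over the tested RAB genes and 1.12 over all genes tested.

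**Figure D1:**
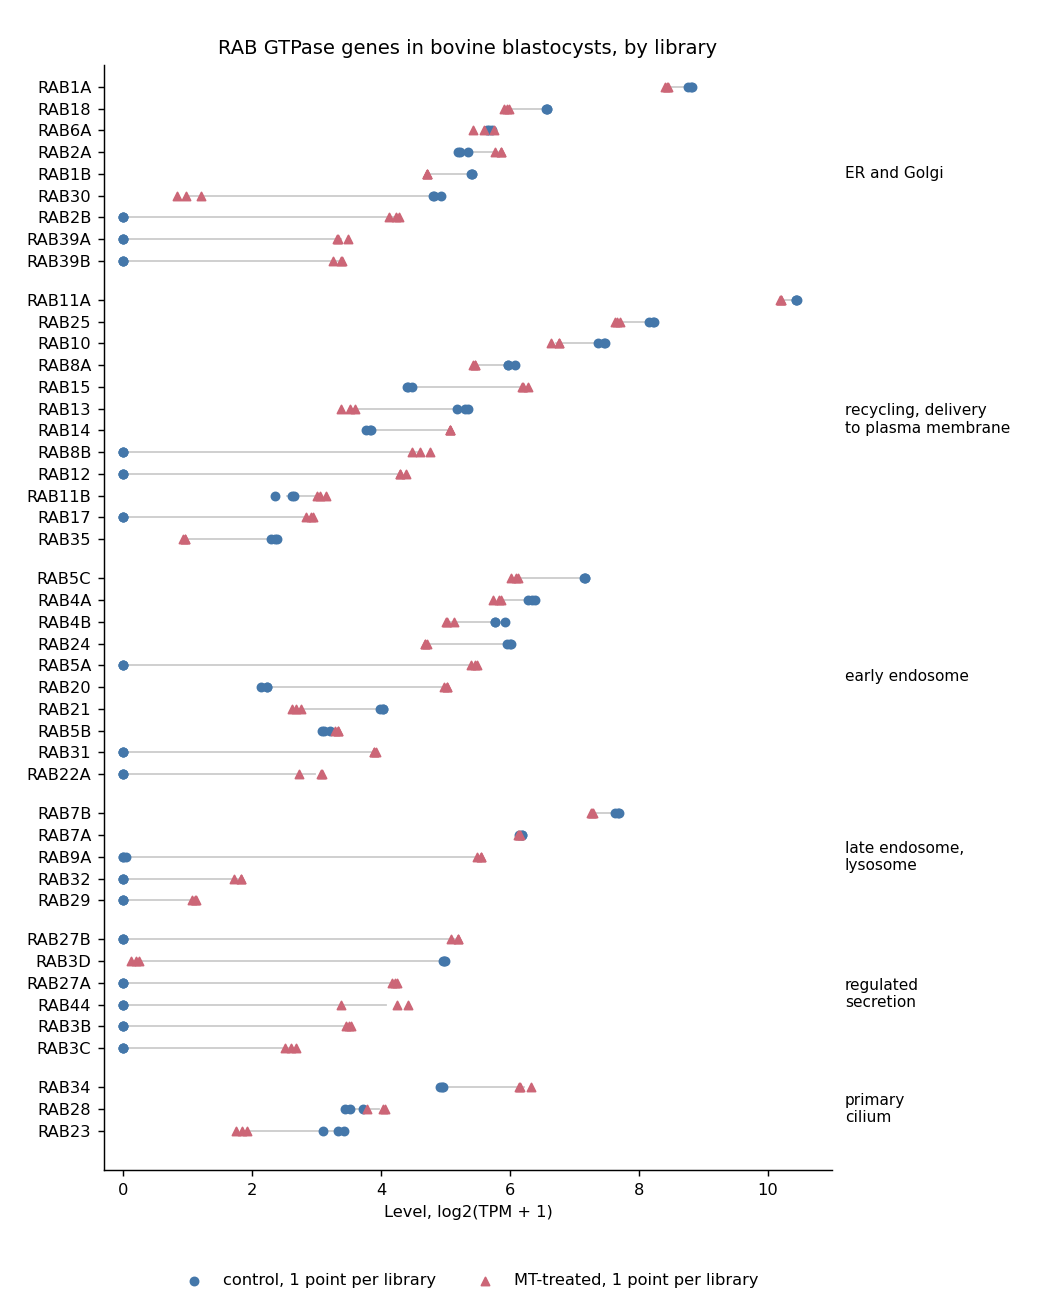
Level of the 45 tested RAB genes as log2(TPM + 1) on the horizontal axis, 1 row per gene grouped by membrane compartment, with 1 point per library (circles control, triangles MT-treated) and a grey line between the group means. The replicates of a group lie close together, 16 genes have all 3 control points at 0, and RAB11A is the highest gene in both groups.

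Many of the differences lay between a listed 0 and a measured level. All 3 control pools listed 0 TPM for 16 of the 45 tested RAB genes (35.6%, against 33.8% of all genes tested), and all 16 passed the level for testing through the MT-treated pools alone, so they had to differ. The same holds for RAB9A, below 1 TPM in every control pool, and, in the other direction, for RAB3D and RAB35, below 1 TPM in every MT-treated pool, so 17 and 2 RAB genes reached the level for testing through 1 group alone. Over all genes tested 42.5% and 5.53% did so. The values of such genes, regulators included, are given below as levels in each pool, with no p-value and, RAB3D apart, no fold change. RAB30, at 1 TPM or more in only 1 MT-treated pool, also needed its control pools to be tested, and its p-value is left out. None of the 45 was listed at 0 in all 3 MT-treated pools, against 3.01% of all genes tested. The mean TPM of the 16 genes in MT-treated blastocysts ran from 1.15 to 42.7 with a median of 12.1, and the median over all tested genes at 0 in control was 10.2. Among the 28 RAB genes above 0 in every library, 4 were higher and 8 lower 2-fold or more, where 22.2% and 27.3% of all such genes were. A zero in these values can stand for an absent transcript or for one that was not captured or counted.

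Levels also depended on the reference chosen between libraries. For the 5988 genes that reached a TPM of 1 in all 6 libraries the median difference was -0.27 on the log2 scale, and centring each library on the median of those genes removed a shift of -0.48 between the groups. After this centring 30 RAB genes were higher and 12 lower, where 70.4% and 25.4% of all genes tested were. By 2-fold or more 23 were higher and 3 lower, where 55.7% and 14.3% of all genes tested were. The 25 RAB genes among those 5988 had a median difference of -0.39 without centring, and 14 of them lay below the median of -0.27 over all such genes. Between replicates these genes had coefficients of variation with a median of 2.77% (control) and 3.62% (MT-treated). Whether so small a spread is that between separate pools of 3 blastocysts, and whether the many zeros in control arose in the embryos or in the processing, cannot be told from these values. Across the 45 genes, log2(TPM + 1) correlated with Pearson's r of 0.996 to 0.9997 between libraries of a group and 0.59 to 0.61 between libraries of different groups. These are correlations over genes that share the library and its total. The genes include those that reached the level for testing through 1 group alone, which lowers the values between groups. The correlations are given as a description.

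The summed level of the RAB genes was 3424, 3426 and 3422 TPM in the control pools and 3018, 3019 and 2982 TPM over the MT-treated pools, below control in all 3, a mean difference of -418 TPM (exact permutation test, two-sided, p = 0.1, the smallest possible). After division by the median of the 5988 shared genes the sum was instead higher in MT-treated blastocysts, 3619 ± 39.8 against 2928 ± 15.1 (SD, n = 3 each). The 5 most abundant RAB genes were RAB11A, RAB1A, RAB25, RAB7B and RAB10, in that order in both groups. RAB11A alone held 40.8 ± 0.148% of the sum in control and 39.1 ± 0.136% in MT-treated blastocysts (SD, n = 3 each), and these shares do not depend on how libraries are scaled.

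**Figure D2:**
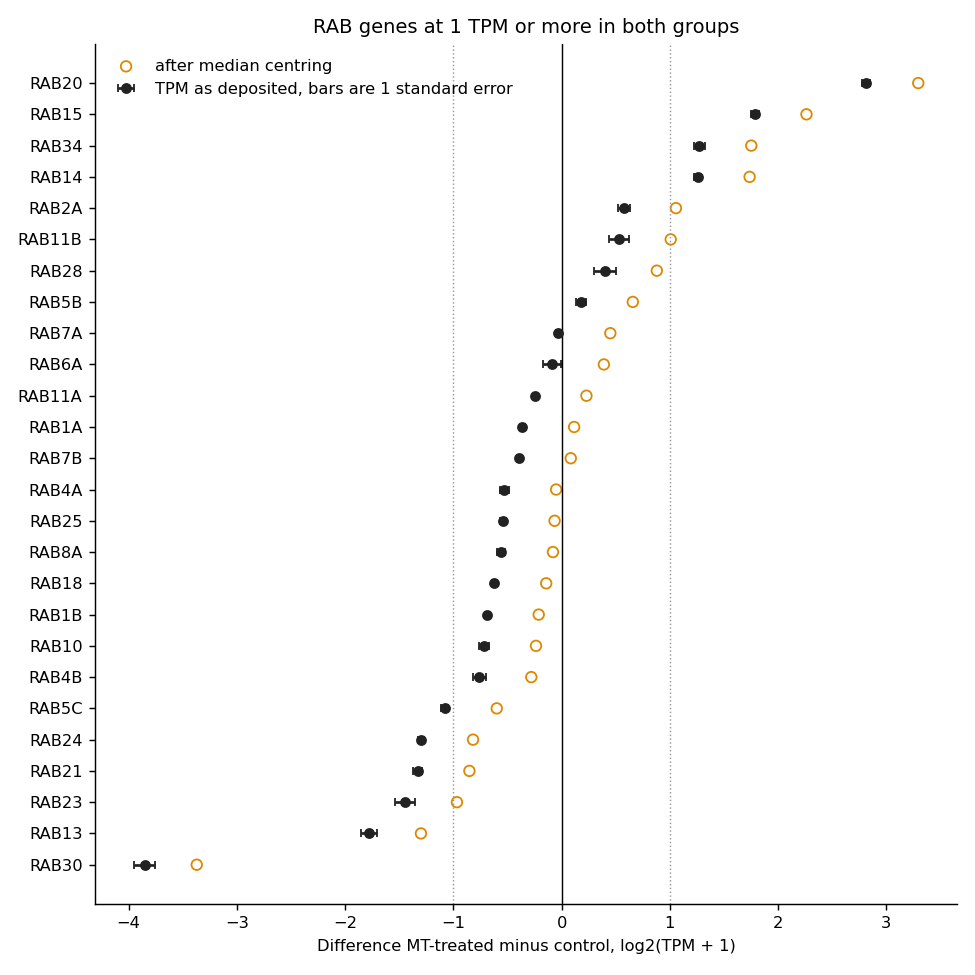
Difference between MT-treated and control blastocysts on the log2(TPM + 1) scale for the 26 RAB genes that reached 1 TPM in at least 1 library of each group. Filled points are the TPM as deposited with 1 standard error, open points the same after median centring, and dotted lines mark 2-fold. RAB30, which reached 1 TPM in only 1 MT-treated library, lies farthest left, at -3.85, and RAB20 farthest right, at 2.82, as deposited. RAB11A, RAB1A, RAB7B, RAB6A and RAB7A change sign.

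Across the family, 10 RAB genes were lower by less than 2-fold, with log2 fold changes from -0.76 to -0.25. They were RAB1A, RAB1B, RAB4A, RAB4B, RAB7B, RAB8A, RAB10, RAB11A, RAB18 and RAB25, which include the 5 most abundant RAB genes. After median centring their values ran from -0.28 to 0.23, and RAB11A, RAB1A and RAB7B lay above 0.

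Genes of recycling endosomes and of delivery to the plasma membrane made up the largest part of the sum, with 2008 ± 7.73 TPM in control and 1698 ± 2.71 TPM in MT-treated blastocysts (SD, n = 3 each). The sums were 1717 and 2044, in the opposite order, after division by the median of shared genes. Of 12 tested genes, 5 were higher and 2 lower 2-fold or more. Here and for the other compartments these counts stand beside 51% and 19.6% of all genes tested, and no compartment was tested against the table. RAB11A (ENSBTAG00000018959), the marker of recycling endosomes, had 1394, 1404 and 1395 TPM in the control pools and 1184, 1176 and 1167 TPM over the MT-treated pools. All MT-treated values were below all control values, a log2 fold change of -0.25 (standard error, SE, 0.01, adjusted p = 4.27e-07 by limma), but after median centring the value was 0.23 in the opposite direction. RAB25, the epithelial relative of RAB11A, had 298, 286 and 299.9 TPM and then 200.6, 197 and 208 TPM, a log2 fold change of -0.54 (adjusted p = 3.05e-06 by limma). It was -0.06 and no longer called after centring (adjusted p = 0.0507 by limma). RAB11B, the second RAB11 isoform, was far lower, with 5.27, 4.10 and 5.15 TPM in control and 7.84, 7.06 and 7.29 TPM in MT-treated pools, and was higher by 0.53 (adjusted p = 0.00139 by limma), but the value was -1.70 after quantile normalization.

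RAB10, which carries cargo such as glucose transporters to the basolateral membrane, fell from 172 ± 6.16 TPM to a level of 104.4 ± 5.31 TPM (SD, n = 3 each), which is -0.72 on the log2 scale (adjusted p = 8.01e-06 by limma), and was -0.24 after centring. RAB13, a RAB of tight junction assembly, had 38.4, 39.9 and 35.1 TPM in control and 9.38, 11.1 and 10.5 TPM in MT-treated pools. The groups did not overlap, and the log2 fold change was -1.78 (SE 0.07, adjusted p = 8.23e-07 by limma), or -3.20 after quantile normalization and -1.30 after median centring. RAB35, which acts in recycling and cytokinesis, had 4.20, 3.88 and 4.11 TPM in control and 0.94, 0.95 and 0.91 TPM in MT-treated pools. RAB15 and RAB14, both of endosomal recycling, moved the other way. RAB15 rose from 20.7 ± 0.572 to 73.5 ± 2.66 TPM and RAB14 from 13.1 ± 0.438 to 32.6 ± 0.146 TPM (SD, n = 3 each), with log2 fold changes of 1.78 and 1.26 (adjusted p = 2.51e-08 and 7.01e-08 by limma). RAB12 had 18.6, 18.6 and 20 TPM and RAB17, an epithelial RAB, 6.12, 6.56 and 6.72 TPM over the MT-treated pools, and both were listed at 0 in every control pool.

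Among RABs of the early endosome, the station that receives endocytosed cargo, 10 of 10 genes were tested, and 4 were higher and 3 lower 2-fold or more, against 51% and 19.6% of all genes. RAB5A (ENSBTAG00000046385), the classical regulator of early endosome fusion, read 0 in every control pool and 43.0, 44.0 and 41.2 TPM over the MT-treated pools. RAB5C had 141, 142 and 142 TPM in control and 67.2, 63.8 and 68.8 TPM in MT-treated pools, which did not overlap, a log2 fold change of -1.08 (SE 0.03, adjusted p = 1.31e-07 by limma). RAB5B was low, with 7.49, 7.70 and 8.24 TPM and 9.05, 8.74 and 9.11 TPM. Its difference of 0.18 passed the threshold (adjusted p = 0.00713 by limma) but was -1.89 after quantile normalization.

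RAB20, which acts on endosomes and phagosomes, was the largest rise from a level above 0 in every control pool, with 3.41, 3.69 and 3.68 TPM in control and 30.6, 31.7 and 31.7 TPM in MT-treated pools. The log2 fold change was 2.82 (SE 0.04, adjusted p = 4.13e-09 by limma). RAB21, an integrin traffic RAB, had 14.9, 15.4 and 15.3 TPM and then 5.74, 5.40 and 5.17 TPM, a log2 fold change of -1.33 (adjusted p = 2.26e-07 by limma), or -2.86 after quantile normalization and -0.85 after median centring. RAB24, a divergent RAB studied in autophagy, fell from 62.5 ± 1.57 to 24.9 ± 0.323 TPM (SD, n = 3 each; log2 fold change -1.30, adjusted p = 3.06e-08 by limma). RAB22A and RAB31, relatives of RAB5, were listed at 0 in every control pool and had 7.41, 7.48 and 5.62 TPM and 14.1, 13.9 and 13.9 TPM over the MT-treated pools. RAB4A and RAB4B, of fast recycling to the surface, fell from 80.0 ± 2.75 to 55.1 ± 2.37 TPM and from 55.6 ± 3.63 to 32.4 ± 1.57 TPM (SD, n = 3 each), and after median centring RAB4A was no longer called (adjusted p = 0.261 by limma).

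Of 8 members of late endosomes, lysosomes and related organelles, 5 were tested. RAB7A, which drives maturation of late endosomes and their fusion with lysosomes, had 71.6, 69.8 and 72.03 TPM in control and 69.0, 69.8 and 70.3 TPM in MT-treated pools. These overlapped, and the difference of -0.03 on the log2 scale (SE 0.02) did not pass the threshold (adjusted p = 0.233 by limma). RAB7B, a relative that acts between endosomes and the Golgi, was the more abundant of the pair, with 203, 198 and 206 TPM and 155, 155 and 152 TPM, a log2 fold change of -0.39 (adjusted p = 2.51e-06 by limma). Median centring shifted both by the same amount, to 0.45 for RAB7A and 0.08 for RAB7B, and after quantile normalization they were 0.26 and -0.16, so RAB7A passed the threshold as higher under both settings (adjusted p = 1.08e-06 and 3.46e-05 by limma). RAB9A (ENSBTAG00000010923), which returns mannose 6-phosphate receptors to the Golgi, had 0, 0 and 0.03 TPM in control and 45.9, 46.0 and 44.1 TPM in MT-treated pools. RAB32 and RAB29, which act on lysosome-related organelles and lysosomes, had 2.54, 2.29 and 2.54 TPM and 1.17, 1.18 and 1.10 TPM over the MT-treated pools and were listed at 0 in every control pool.

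RABs between the endoplasmic reticulum and the Golgi and within the Golgi had 9 tested members, of which 3 were higher and 1 lower 2-fold or more, against 51% and 19.6% of all genes. RAB1A, needed for transport from the endoplasmic reticulum to the Golgi, had 452, 450.2 and 435 TPM in control and 352, 347 and 339.9 TPM in MT-treated pools, a log2 fold change of -0.36 (adjusted p = 5.19e-06 by limma) that became 0.12 after median centring. RAB6A, the RAB of the trans Golgi, had 49.0, 51.6 and 50.1 TPM and 42.1, 52.7 and 47.3 TPM. The groups overlapped, and the difference of -0.09 (SE 0.08) was not called (adjusted p = 0.322 by limma), but both the call and the direction moved with the setting. It was -0.17 without MT-treated replicate 2, 0.39 after median centring and 0.22 after quantile normalization (adjusted p = 0.0456, 0.00331 and 0.0428 by limma). RAB30 (ENSBTAG00000002417), a Golgi RAB, had 27.4, 27.1 and 29.3 TPM in control and 0.79, 1.3 and 0.96 TPM in MT-treated pools, a log2 fold change of -3.85. It met the level for testing only with its control pools, so no p-value is given. RAB2B, RAB39A and RAB39B were the higher genes, each listed at 0 in every control pool, and RAB39A and RAB39B had 8.97, 10.2 and 9.02 TPM and 9.46, 9.37 and 8.56 TPM with MT. RAB1B fell from 41.3 ± 0.258 to 25.2 ± 0.09 TPM and RAB18, which acts at lipid droplets and the endoplasmic reticulum, from 93.9 ± 0.712 to 60.7 ± 1.69 TPM (SD, n = 3 each), with log2 fold changes of -0.69 and -0.62 (adjusted p = 1.85e-07 and 8.50e-07 by limma).

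In regulated secretion, 5 of 6 tested genes were listed at 0 in every control pool, as were 33.8% of all genes tested, and the sixth, RAB3D, was below 1 TPM in every MT-treated pool. RAB27A and RAB27B, which dock secretory granules and exosome-bearing bodies at the plasma membrane, had 17.7, 17.1 and 18.1 TPM and 35.7, 35.8 and 33.0 TPM over the MT-treated pools and 0 in each control pool. RAB3D (ENSBTAG00000065529), a RAB of exocrine granules, had 30.7, 30.3 and 30.7 TPM in control and 0.14, 0.19 and 0.09 TPM in MT-treated pools. The fitted difference depended on the added TPM, and was -4.79 on the log2 scale with 1 TPM added and -7.02 with 0.1 TPM added. RAB3B and RAB3C, its relatives in neurosecretion, were listed at 0 in every control pool and had 10.5, 9.94 and 10.4 TPM and 5.08, 4.70 and 5.42 TPM over the MT-treated pools. RAB44, a large RAB with calcium-binding EF hands, spread widely among replicates, with 18.0, 20.4 and 9.41 TPM over the MT-treated pools and 0 in each control pool. The summed level of the secretory RABs was 30.6 ± 0.221 TPM in control and 83.9 ± 6.52 TPM in MT-treated blastocysts (SD, n = 3 each).

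The 3 RABs linked to the primary cilium did not move together. RAB23, which restrains Hedgehog signalling, fell from 9.72, 9.06 and 7.60 TPM to 2.60, 2.37 and 2.78 TPM, a log2 fold change of -1.45 (SE 0.09, adjusted p = 8.30e-06 by limma). The value was -2.81 after quantile normalization and -0.97, less than 2-fold, after median centring. RAB34, needed for the ciliary vesicle, rose from 29.7 ± 0.375 to 73.4 ± 5.29 TPM (SD, n = 3 each; log2 fold change 1.27, adjusted p = 8.19e-07 by limma). RAB28 was higher by 0.40 (adjusted p = 0.00957 by limma) but the value was -0.73 after quantile normalization.

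**Figure D3:**
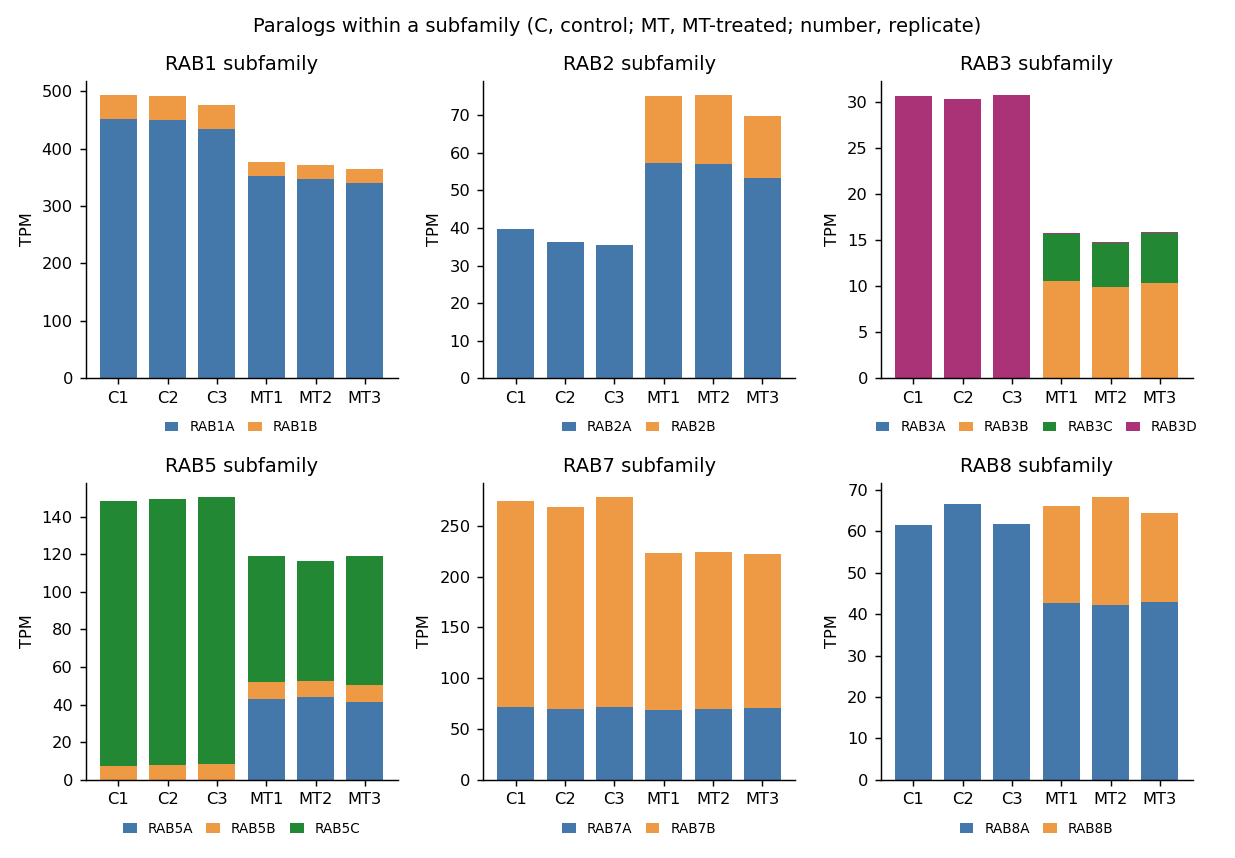
TPM of the paralogs of 6 RAB subfamilies stacked for each library (C control, MT MT-treated, the number is the replicate), on separate vertical axes that start at 0. RAB5A, RAB8B and RAB2B appear in the MT-treated bars only, the RAB3 bars hold RAB3D in control and mostly RAB3B and RAB3C in MT-treated libraries, and the heights of the RAB8 bars, in TPM as deposited, overlap between the groups.

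Paralogs of 1 subfamily share effectors in part, and their shares of the subfamily's summed TPM are likewise free of the scaling between libraries. In the RAB5 subfamily, RAB5C held 94.8 ± 0.221% in control and 56.3 ± 1.54% in MT-treated blastocysts, RAB5A 0% and 36.1 ± 1.62%, and RAB5B 5.23 ± 0.221% and 7.58 ± 0.0756% (SD, n = 3 each). The sum of the RAB5 genes was 149.4 ± 1.14 TPM and 118.3 ± 1.5 TPM (SD, n = 3 each), and 127.8 ± 0.790 and 142.4 ± 1.72 after division by the median of shared genes. In the RAB3 subfamily, RAB3D held 100% in every control pool and 0.889, 1.28 and 0.567% in the MT-treated pools, where RAB3B held 66.4 ± 0.975% and RAB3C 32.7 ± 1.3% (SD, n = 3). The summed RAB3 level was 30.6 ± 0.221 TPM in control and 15.5 ± 0.566 TPM in MT-treated blastocysts (SD, n = 3 each). After division by the median of shared genes it was 26.1 ± 0.112 and 18.6 ± 0.652, a smaller difference. Only these 2 subfamilies held 1 tested member higher and another lower 2-fold or more, and after median centring, where RAB5C was -0.60, RAB3 alone did. RAB5A, RAB3B, RAB3C and RAB3D reached the level for testing through 1 group alone and had to differ, so these opposite calls are given as a description.

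RAB8A and RAB8B, which carry cargo to the plasma membrane and cilium, changed shares, and as deposited their sums overlapped between the groups. RAB8A had 61.6, 66.6 and 61.7 TPM in control and 42.8, 42.1 and 42.9 TPM in MT-treated pools, and RAB8B 0 in each control pool and 23.2, 26.2 and 21.4 TPM over the MT-treated pools. Their sum was 63.3 ± 2.83 and 66.2 ± 1.99 TPM (SD, n = 3 each; exact permutation test, two-sided, p = 0.3), but after division by the median of shared genes it was 54.1 ± 2.62 and 79.7 ± 2.63 (p = 0.1 by the same exact test). RAB8A thus held 100% in control and 64.4 ± 2.56% in MT-treated blastocysts (SD, n = 3). In the RAB2 subfamily RAB2A rose from 37.2 ± 2.24 to 55.9 ± 2.11 TPM (SD, n = 3 each; log2 fold change 0.58, adjusted p = 4.84e-05 by limma) and RAB2B, with 17.8, 18.4 and 16.5 TPM over the MT-treated pools, held 23.9 ± 0.469% there.

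In the abundant subfamilies the shares differed by fewer percentage points. RAB1A held 91.5 ± 0.174% of the RAB1 level in control and 93.2 ± 0.118% in MT-treated blastocysts, RAB11A 99.7 ± 0.0471% and 99.4 ± 0.0309% of the RAB11 level, and RAB7A 26.0 ± 0.102% and 31.2 ± 0.357% of the RAB7 level (SD, n = 3 each). In these 3 subfamilies the libraries of both groups did not overlap (exact permutation test, two-sided, p = 0.1, the smallest possible). RAB4A held 59.0 ± 2.36% of the RAB4 level in control and 63.0 ± 2.14% in MT-treated blastocysts (SD, n = 3 each), and these overlapped (exact permutation test, two-sided, p = 0.2). RAB27 and RAB39 had no share in control because all their genes were listed at 0. RAB27B held 66.4 ± 1.56% and RAB39A 50.7 ± 1.78% in MT-treated blastocysts (SD, n = 3). Reads that fit several close paralogs can be assigned to either, and how the authors counted them is not given in the sources used here, so the values of RAB1A, RAB1B, RAB11A, RAB11B and the other close pairs are uncertain to that extent.

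The machinery that lipidates and extracts RAB proteins had 8 genes, all tested and all above 0 in at least 1 library of both groups, and 2 were higher and 3 lower 2-fold or more. The transferase subunits RABGGTA and RABGGTB differed in opposite directions. RABGGTA had 31.1, 31.3 and 32.6 TPM in control and 0, 0.07 and 0 TPM in MT-treated pools, whereas RABGGTB had 17.9, 18.6 and 17.7 TPM and then 45.8, 37.6 and 42.3 TPM (log2 fold change 1.17, adjusted p = 6.81e-06 by limma). GDI2, which extracts RABs from membranes, rose from 151 ± 2.11 to 202 ± 3.04 TPM (SD, n = 3 each), with a log2 fold change of 0.41 (adjusted p = 1.53e-06 by limma). The escort proteins CHM and CHML fell from 2.94 ± 0.155 to 1.27 ± 0.0721 TPM and from 4.65 ± 0.0862 to 1.79 ± 0.0666 TPM (SD, n = 3 each). The chaperone RABIF rose from 12.3 ± 0.428 to 44.0 ± 2.24 TPM and the GDI displacement protein RABAC1 from 117 ± 1.5 to 158 ± 4.19 TPM (SD, n = 3 each). The directions of these named genes were the same after median centring and after quantile normalization.

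Of 29 tested genes listed as exchange factors, which switch RABs on, or as their partners, 20 (69.0%) were higher and 6 (20.7%) lower 2-fold or more. In every control pool 11 were listed at 0, as were 33.8% of all genes tested. WDR41, a partner of SMCR8 and C9orf72, was one of the listed genes at 0 in control, with 68.1, 60.3 and 54.7 TPM over the MT-treated pools. DENND5A, an exchange factor of RAB39, had 0.02, 0 and 0 TPM in control and 48.7, 45.6 and 48.3 TPM in MT-treated pools. RIC1, of the RAB6 exchange complex, had 183, 157 and 149.0 TPM in control and 0.01, 0 and 0.01 TPM with MT, and GAPVD1, an exchange factor of RAB5, fell from 198 ± 23.6 to 14.5 ± 0.186 TPM (SD, n = 3 each; log2 fold change -3.68, adjusted p = 4.04e-08 by limma). Of 9 tested subunits of the TRAPP complex, which activates RAB1 and RAB11 relatives, 6 were higher and 2 lower by limma. The threshold was an adjusted p under 0.05, at which 61.6% and 34.1% of all genes tested were higher and lower. By 2-fold or more 5 subunits were higher and none lower. All 5 lay below 1 TPM in every control pool, 4 of them at 0, and so had to differ. TRAPPC2L was listed at 0 in every control pool and had 86.4, 95.8 and 103.3 TPM over the MT-treated pools, and TRAPPC4 had 0.07, 0 and 0 TPM and 31.5, 32.9 and 34.6 TPM.

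Of 32 tested genes listed as GTPase-activating proteins, which switch RABs off, or as their relatives, 20 (62.5%) were higher and 8 (25%) lower 2-fold or more. In every control pool 16 were listed at 0, against 33.8% of all genes tested. EVI5, linked to RAB11, and TBC1D5, linked to RAB7 and retromer, were among these, with 58.4, 57.6 and 57.5 TPM and 56.8, 51.8 and 43.0 TPM over the MT-treated pools. RAB3GAP2, a subunit of the complex that acts on RAB3 and RAB18, had 61.5, 58.0 and 70.1 TPM in control and 0.46, 0.35 and 0.33 TPM with MT, while the other subunit, RAB3GAP1, rose from 1.94 ± 0.180 to 26.3 ± 0.931 TPM (SD, n = 3 each; adjusted p = 1.25e-08 by limma). TBC1D23, a Golgi tether with a TBC domain, had 24.5, 25.7 and 24.8 TPM in control and 0, 0.02 and 0 TPM with MT.

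Of 45 tested effectors, 23 (51.1%) were higher and 13 (28.9%) lower 2-fold or more, and 16 were listed at 0 in every control pool, against 33.8% of all genes tested. RABEPK, an effector of RAB9, and the golgin GOLGA5 were among the latter, with 50.4, 51.3 and 50.2 TPM and 33.3, 36.5 and 32.0 TPM over the MT-treated pools. RAB11FIP1, an effector of RAB11A and RAB25, had 26.0, 27.3 and 28.0 TPM in control and 0.83, 0.71 and 0.97 TPM with MT, and RUFY3, a RUN domain adaptor, fell from 86.6, 82.2 and 77.5 TPM to 1.59, 2.02 and 1.27 TPM. Of 7 tested RAB-like genes, 5 were higher and 2 lower 2-fold or more. All 5 higher ones were listed at 0 in every control pool and so had to differ. RABL3 and RABL6 were listed at 0 in every control pool, with 18.2, 19.8 and 19.1 TPM and 19.98, 18.6 and 21.1 TPM over the MT-treated pools, while RABL2B and IFT22, both of ciliary transport, fell from 71.7 to 7.74 TPM and from 39.4 to 4.03 TPM on average (adjusted p = 4.42e-09 and 8.61e-07 by limma). These lists are set beside the 51% higher and 19.6% lower of all genes tested, and no difference of a list from the table was tested.

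**Figure D4:**
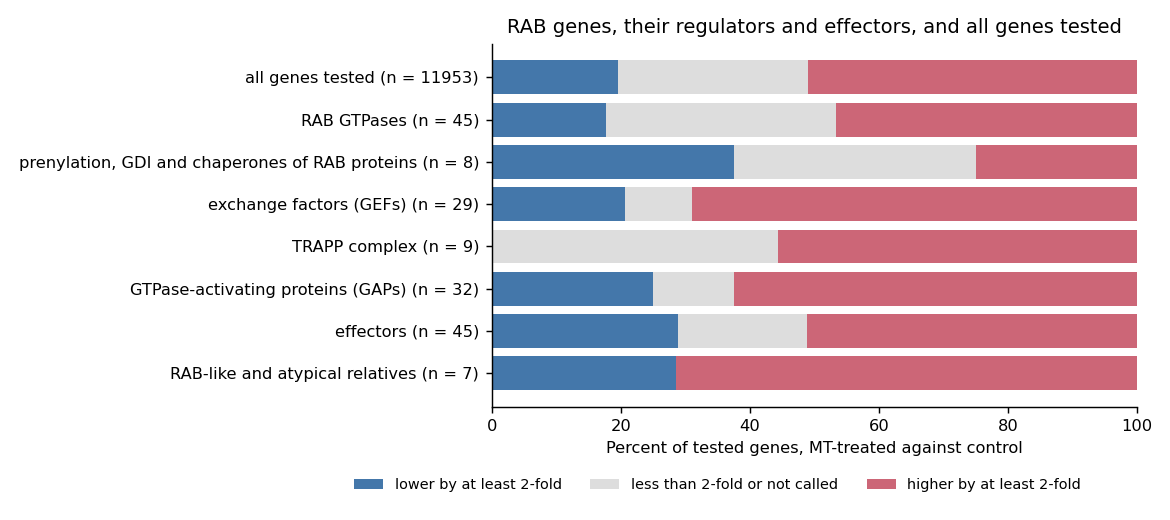
Percent of tested genes higher or lower by at least 2-fold in MT-treated against control blastocysts, for all genes tested, the RAB genes and 6 lists of their regulators, effectors and relatives (n is the number of tested genes). RAB genes resemble the whole table, with 46.7% against 51% higher and 17.8% against 19.6% lower.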

How the data were processed

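The deposited values are TPM to 2 decimals, 1 column per library. According to the study and the submitters' notes, the authors trimmed reads with fastp, inspected them with FastQC (0.11.9), mapped them by STAR (2.7.9a) and counted them with featureCounts (Subread 1.6.3), and replicates were not pooled. The study names ARS-UCD1.3 and the submitters' notes ARS-UCD1.2, and how counts became TPM is not given in the sources used here. The deposited TPM keep no counts, so read depth could not be computed from them and was not used here, no counting interval is given, and count tests, DESeq2 included, were not run.

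Groups came from the sample titles, and columns were matched by the sample descriptions. Genes that reached a TPM of 1 in 3 or more libraries entered a limma fit of log2(TPM + 1), with a mean-variance trend in eBayes (limma 3.58.1, R 4.3.3), and p-values were adjusted by Benjamini-Hochberg over all 11953 genes at 0.05. Sums, counts and shares were computed for each library, and an exact two-sided permutation test compared the groups. Python 3.11.15 with pandas 2.3.3 and matplotlib 3.10.9 was used otherwise. Simulated data with known changes were used to test the fit.

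The members, roles and lists were chosen with earlier results of these data known. Named RAB genes were the 6 largest rises and 6 largest falls of at least 2-fold, the 5 most abundant, subfamilies with opposite changes, absolute log2 differences under 0.3 and untested genes above 0, plus 2 rises and 2 falls per list, of which 1 gene is not reported here. Other genes with values were named after their values were seen. The alternatives were median centring, quantile normalization, a pseudocount of 0.1, a TPM minimum of 5 or none, eBayes without trend, the replicate number as a block, leaving out each library, and other scalings of the sum. The study states that its replicates came from 3 independent production runs, but not that equal numbers mark the same run. RAB protein sequences and coordinates were not used here.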

Additional observations from a re-analysis of the deposited data

How the results depend on the processing

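The counts of RAB genes higher or lower stayed within 1.5 times of 25 and 18, and of 21 and 8 by at least 2-fold, except in 3 cases. Median centring left 3 lower by at least 2-fold, and keeping only genes above 0 in each of the 6 libraries, an alternative chosen after seeing the data, left 8 higher and 4 higher by at least 2-fold, because it leaves out genes at 0 in control. Under it 7 of 14 exchange factors, 4 of 14 GTPase-activating proteins, 6 of 28 effectors, 0 of 4 TRAPP subunits and 0 of 2 RAB-like genes were higher by at least 2-fold by limma, and 4, 6, 13, 0 and 2 lower, where 22.2% and 27.4% of all 6925 such genes were. With each library left out the counts were 25 higher, 18 to 19 lower, 21 higher and 8 lower by at least 2-fold. The summed RAB level, a difference of -418 TPM, became -361 TPM after rescaling every library to the same total and 691 TPM after division by the median of shared genes, and -424 to -405 TPM with a library left out. The same division, added after seeing the data for parts of the sum, turned the difference in the RAB5 sum to 14.6 and that in the sum of the recycling RABs to 327. The rise of 18.7 in RAB genes above 0 was 14.3 for a TPM of at least 1, and 18.5 to 19 with a library left out. Median centring, a constant shift of all genes, reversed RAB11A (0.23), RAB1A (0.12), RAB7B (0.085), RAB7A (0.45) and RAB6A (0.39), and RAB4A (-0.05), RAB25 (-0.06) and RAB8A (-0.08) were no longer called. Quantile normalization reversed RAB11B (-1.70), RAB28 (-0.73), RAB5B (-1.89), RAB7A (0.26) and RAB6A (0.22), and the cause was not tested. It also widened the falls of RAB13 (-3.20), RAB21 (-2.86) and RAB23 (-2.81).

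With the replicate number as a block, 25 RAB genes were higher and 18 lower, and 21 and 8 by at least 2-fold, as without it. Libraries with the same number had deviations that correlated at 0.09, -0.00074 and 0.15 across 5988 genes, so the numbers were not taken as pairs.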
